A study of Arabidopsis thaliana with 72 samples.

Results

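Plastids keep a small genome of their own, and the genes followed here are those of it that serve gene expression and other functions outside the photosynthetic complexes. They were taken as the probe sets of the ATH1 array with a single annotated gene on the plastid chromosome whose symbol does not start with psa, psb, pet, atp, rbc or ndh. This rule gave 26 genes of 69 plastid genes with such a probe set, on an array of 22810 probe sets. They are 4 subunits of RNA polymerase (rpoA, rpoB, rpoC1 and rpoC2), 8 proteins of the small ribosomal subunit (rps2, rps3, rps4, rps14, rps15, rps16, rps18 and rps19) and 7 of the large subunit (rpl14, rpl16, rpl20, rpl22, rpl32, rpl33 and rpl36). The other members are matK, ycf3, ycf4, accD, clpP, ccsA and cemA. RefSeq places each of the 26 on the plastid chromosome, and each symbol fits the rule.

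Plastid genes are read by a bacterial-type RNA polymerase, its core built from the plastid rpo genes and its sigma factors imported from the nucleus, and by a phage-type enzyme encoded in the nucleus. The rpoB operon, accD and clpP are known for promoters of the nuclear-encoded enzyme, whereas most photosynthesis genes use the bacterial-type enzyme. Many plastid genes are transcribed together in long precursors that are then cut, spliced and edited by imported proteins, and the mature RNAs are translated on ribosomes of bacterial type.

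Transcripts were measured in aerial tissue of Arabidopsis thaliana seedlings raised for 11 days with light and darkness alternating every 12 h and then moved to continuous light. The 3 conditions were wild type of ecotype C24 without treatment, the same ecotype given nicotinamide, an inhibitor of ADP-ribosyl cyclase, at a concentration the labels do not state, and toc1-1 without treatment, a clock mutant with an EMS-induced change in the gene it is named for. Each condition had 24 arrays, as 2 replicate time courses of 12 arrays taken every 4 h from 49 to 93 h. The labels of toc1-1 give no ecotype and a denser sowing, and replicate 1 of untreated and of nicotinamide differs in its labels from the other 4 time courses in seedlings per clump and in the day length stated at the end. Untreated replicate 1 alone carries an earlier developmental stage. None of these can be told apart from the time courses they move with. Nothing in the labels says whether replicates were separate sowings, so the p-values here refer to the spread among these arrays, part of which may be technical. Every array comes from whole shoots, in which fewer plastids per cell and less RNA per plastid cannot be told apart. The RNA was labelled by a one-cycle protocol that primes from poly(A) tails, which most plastid RNAs lack in stable form.

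Values are array signals scaled by the authors, and differences are on the log2(signal + 16) scale, which understates changes of weak signals. Of the 26 members, 25 passed the filter that kept the upper 60% of probe sets by mean signal. The exception, rps14, a small-subunit protein, gave signals of 1.39 to 41.6 over the 72 arrays and was not tested. A member is called higher, lower or rhythmic where limma's adjusted p, over all 13647 tested probe sets, was under 0.05. Standard errors (SE) come from that fit, with 24 arrays in each condition. Signals of different genes come from different probes and are not compared with each other.

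The nicotinamide time courses stood apart from the others. The median signal of an array averaged 28.4 and 24.7 in replicates 1 and 2 under nicotinamide, against 34.3 to 36.2 in the other 4 time courses (n = 12 arrays each). Arrays of the 2 replicates at 1 time correlated at 0.95 to 0.991 over the 36 pairs (log2 scale). On the authors' scaling the median of all tested probe sets was -0.121 in nicotinamide against untreated seedlings, and 61% of the calls were lower. Quantile normalization moved that median to 0.003 and that share to 49.7%, and left the members' calls at 1 higher and 22 lower. Sums of 4 green-tissue markers averaged 10080 and 10970 under nicotinamide and 10570 to 12340 in the other time courses, most of it from RCA and LHCB4.1. Of 12 listed green-tissue markers these 4 had a named probe set. LHCB4.1 (-0.28), LHCB4.2 (-0.86) and LHCB4.3 (-1.41) were called lower under nicotinamide, while RCA was at 0.13 without a call. In toc1-1 LHCB4.3 (-0.25) was called lower (log2 differences). Sums of 8 root markers averaged 2326 and 2209 under nicotinamide, 3953 and 4598 in untreated seedlings and 3509 and 3838 in toc1-1, most of it from PYK10. All 5 tested root markers were lower under nicotinamide, by log2 differences of -0.70 in PYK10 to -3.30 in AT4G26010. In toc1-1 PYK10 was at -0.0007, and the other 4 were lower, from -1.41 in AT3G01190 to -2.67 in AT4G26010. The last had median signals of 185 (untreated), 0.766 (nicotinamide) and 10.2 (toc1-1), and the part of green or root tissue in the results was not tested. The 3' to 5' log2 ratio of the actin control averaged -1.07 and -1.03 in the untreated courses, -0.46 and -1.01 under nicotinamide and -0.30 and -0.81 in toc1-1, and that of GAPDH -0.30 to -0.22 in the 6 courses. The 25S rRNA control averaged 7.25 and 8.14, 7.81 and 7.98, and 7.87 and 9.18 in the same order (log2 signal).

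Averaged over the 25 tested members, the log2 signal was 9.82 ± 0.277 and 9.72 ± 0.294 in the untreated time courses (replicates 1 and 2; SD, n = 12 arrays). Under nicotinamide it was 9.32 ± 0.708 and 8.36 ± 0.724 (SD, n = 12), lower and more variable. In toc1-1 it was 10.06 ± 0.260 and 10.20 ± 0.175 (SD, n = 12). The lowest nicotinamide array of replicate 1, at 77 h, stood at 7.50, and in replicate 2 the arrays of 49, 65 and 93 h, at 9.11, 9.44 and 9.57, lay above the other 9 of that course.

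**Figure D1:**
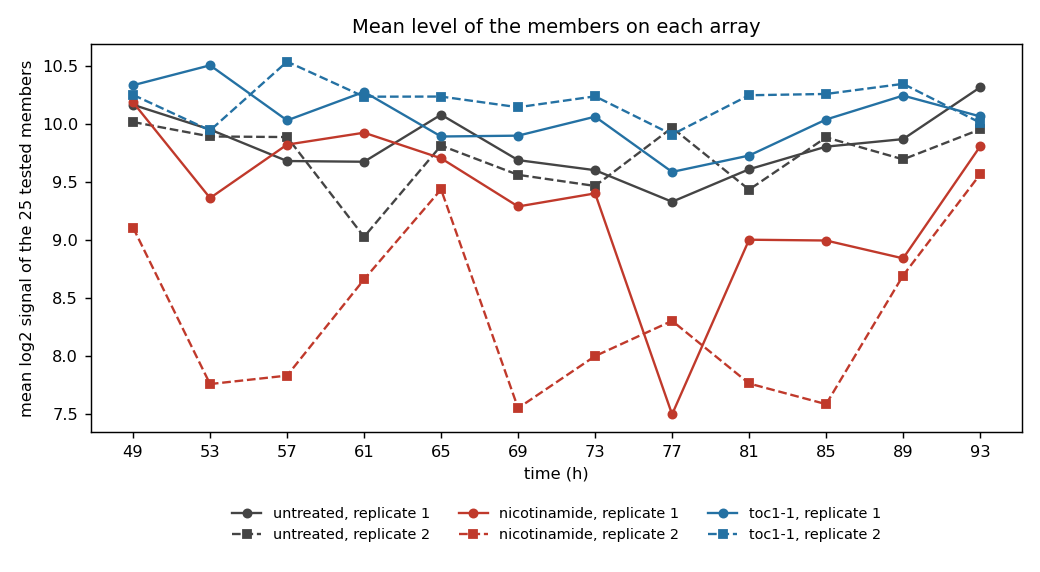
Mean log2 signal of the 25 tested members (vertical axis) on each array against time in h (horizontal axis), with 1 line for each replicate time course of untreated (grey), nicotinamide (red) and toc1-1 seedlings (blue). The replicate 2 course under nicotinamide ran lowest, between 7.55 and 9.57, and the replicate 1 course dropped to 7.50 at 77 h.

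Under nicotinamide most members fell. Of the 25 tested, 22 were lower and 1 was higher than in untreated seedlings, against backgrounds of 48.4% lower and 30.9% higher among all tested probe sets (79.3% in either direction). The median log2 difference of the members was -0.87, or -0.75 relative to the median of all tested probe sets. A log2 difference of -1 or lower was seen in 10 members, against 8.82% of all tested probe sets. The mean of both nicotinamide time courses lay below that of both untreated ones for 17 of 25, with a background of 46.8%. With the 6 time-course means as the units of the test, 13 members were still called lower (background 35.3%). An exact permutation test of 2 time courses against 2 cannot go below p = 0.333.

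The largest falls were in ribosomal protein genes from 1 stretch of the plastid chromosome, which holds the members rpl36, rpl14, rpl16, rps3, rpl22 and rps19 in that order. The gene rpl22 (probe set 244985_at) encodes a large-subunit protein whose bacterial homologue lines the tunnel for the nascent chain. Its signal ran from 507 to 2791 with a median of 1848 in untreated replicate 1 and from 381 to 2322 with a median of 1394 in replicate 2. Under nicotinamide it ran from 107 to 1361 with a median of 304 in replicate 1 and from 48.3 to 366 with a median of 78.9 in replicate 2. Of the 24 nicotinamide arrays, 19 lay below every untreated array, and the fall was 2.73 ± 0.24 on the log2 scale (a log2 difference of -2.73, SE; adjusted p = 1.07e-13).

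The gene next to it, rps3 (244984_at), encodes a small-subunit protein that in bacteria sits at the entry of the mRNA channel. Its untreated signal had medians of 2224 (range 1001 to 2677) in replicate 1 and 2009 (837 to 3036) in replicate 2. Under nicotinamide the medians were 536 (182 to 1892) and 182 (104 to 723). Again 19 of 24 nicotinamide arrays lay below all untreated ones, and the log2 difference was -2.30 ± 0.21 (SE; adjusted p = 1.57e-13).

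Farther along the same stretch, rpl36 (244980_at), for a small protein of the large subunit, had untreated medians of 648 (326 to 903) and 650.3 (134.5 to 947). Its nicotinamide medians were 199.8 (36.2 to 679.5) in replicate 1 and 52.8 (31.6 to 253) in replicate 2. Of 24 nicotinamide arrays 12 lay below the lowest untreated array, and the log2 difference was -2.09 ± 0.21 (SE; adjusted p = 4.13e-12).

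For rpl14 (244982_at), whose bacterial homologue forms a bridge between the subunits, the untreated medians were 295 (139 to 680) and 264 (80.8 to 471). In nicotinamide replicate 1 the median was 152.5 with a wide range of 19.7 to 728, and in replicate 2 it was 18.8 with a range of 5.06 to 172.5. The replicate 1 course overlapped the untreated range, with 1 array above it, and replicate 2 lay mostly below it. The log2 difference was -1.60 ± 0.27 (SE; adjusted p = 9.68e-07), and with time-course means as units the call was lost.

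The last gene of the stretch, rps19 (244986_at), encodes a protein of the head of the small subunit. Untreated medians were 1770 (1555 to 2316) and 1776 (970.5 to 2420), and nicotinamide medians were 903 (312 to 1892) and 341 (217 to 1422). Of 24 nicotinamide arrays 17 lay below every untreated one, with a log2 difference of -1.43 ± 0.17 (SE; adjusted p = 2.2e-10).

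All 7 tested proteins of the small subunit were lower under nicotinamide, with log2 differences from -2.30 (rps3) to -0.71 (rps4). Besides rps3 and rps19 these were rps16 (-1.14 ± 0.11), rps15 (-0.98 ± 0.16), rps18 (-0.90 ± 0.14), rps2 (-0.87 ± 0.20) and rps4 (-0.71 ± 0.11; SE each). For rps2 the mean difference was -0.20 in replicate 1, higher at 6 of 12 times, and -1.55 in replicate 2, and its call was lost with time-course means as units (adjusted p = 0.0917, limma). The homologues of rps4 and rps15 in bacteria bind the ribosomal RNA early in subunit assembly. Of the 7 large-subunit proteins 6 were lower, among them rpl16 (-1.12 ± 0.35), rpl33 (-1.06 ± 0.15) and rpl32 (-0.65 ± 0.14; SE each). The exception was rpl20, whose log2 difference was -0.11 ± 0.14 (SE; adjusted p = 0.467). In rps18 and rpl20, neighbours on the chromosome, the log2 differences were thus -0.90 and -0.11.

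Of the 4 polymerase subunits 2 were called lower and 1 higher under nicotinamide, and differences between them were not tested. In all 4, replicate 2 was lower than replicate 1. The alpha subunit gene rpoA, which lies near that stretch and apart from the other rpo genes, fell by 1.34 on the log2 scale (SE 0.11; adjusted p = 1.17e-14), and 18 of 24 arrays lay below all untreated ones. In the rpoB operon, read in the order rpoB, rpoC1, rpoC2, the differences were -0.20 ± 0.29 for rpoB, 0.68 ± 0.18 for rpoC1 and -0.59 ± 0.23 for rpoC2 (SE), of which the last and rpoC1 were called. The gene rpoC1 (244998_at) was the sole member called higher. It had untreated medians of 693 (548 to 1028) and 496 (327 to 798), against 1768 (462 to 2150) and 580 (229 to 1501) under nicotinamide. Of 24 nicotinamide arrays 14 lay above all untreated arrays and 1 below, and 11 of the 12 times of replicate 1 were above the untreated mean of the time, against 6 of 12 in replicate 2. The mean log2 difference from untreated seedlings was 1.31 in replicate 1 and 0.06 in replicate 2, and the call was lost with time-course means as units (adjusted p = 0.000935 in the fit over all arrays).

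Of the remaining genes, accD, which encodes a subunit of the plastid acetyl-CoA carboxylase of fatty acid synthesis, fell most, by 1.26 on the log2 scale (SE 0.21). The assembly factors of photosystem I, ycf3 and ycf4, had differences of -0.52 ± 0.21 and -0.71 ± 0.24. The envelope protein gene cemA, known for inorganic carbon uptake in Chlamydomonas, was at -0.55 ± 0.18. Smaller falls were seen for ccsA (-0.38 ± 0.10), needed to attach heme to c-type cytochromes, for clpP (-0.35 ± 0.12), a catalytic subunit of the Clp protease, and for matK (-0.29 ± 0.08), a maturase of group II introns (SE each). All 7 of these genes were called lower. With the time courses as a random block (estimated correlation 0.16) 16 of the 22 lower calls held, and those of matK, rpoC2, ycf3, ycf4, cemA and clpP were lost, with adjusted p from 0.0539 in matK to 0.12 in clpP (limma). That of matK was also lost with replicate 1 alone. Without replicate 2 of nicotinamide the call of clpP was lost, and the log2 differences turned positive in ycf3 (0.16), ycf4 (0.091), cemA (0.02), rpoC2 (0.21) and rpl16 (0.35).

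**Figure D2:**
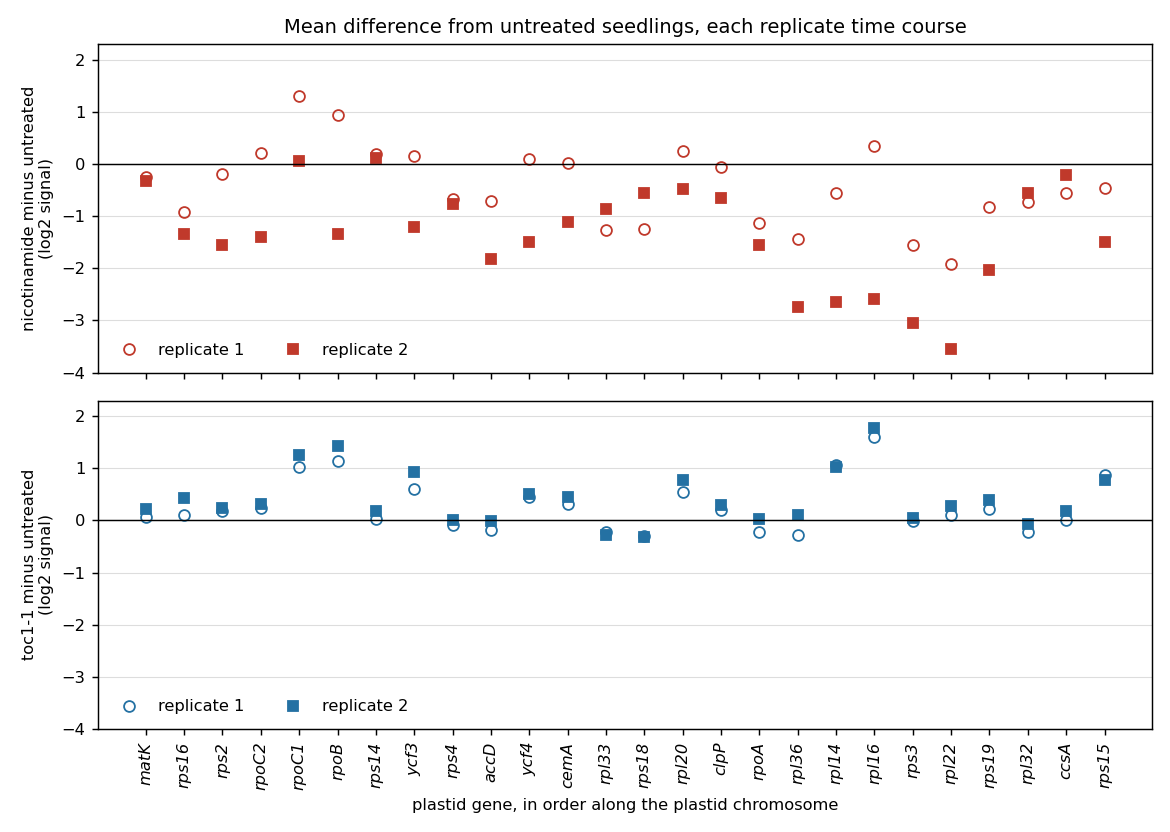
Mean log2 difference from the untreated mean of the same time (vertical axes) for each of the 26 members in chromosome order (horizontal axis), under nicotinamide (upper panel) and in toc1-1 (lower panel), with replicate 1 as open circles and replicate 2 as filled squares, each the mean of 12 times. Under nicotinamide the replicates of rpl16 were at 0.35 and -2.60, whereas those of toc1-1 were at 1.59 and 1.77.

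The replicate time courses under nicotinamide differed from each other in most members. Replicate 2 was lower than replicate 1 in 19 of 25 members and higher in rps18 (0.70 ± 0.16) and ccsA (0.36 ± 0.12; SE), so 21 were called, against a background of 45.3% (29.1% lower). In untreated seedlings 2 members were called, rpoC1 (-0.53 ± 0.16) and rpoB (-0.63 ± 0.19), with a background of 5.88%. No member was called in toc1-1 (0.103% of all tested probe sets; 1 member at an unadjusted p under 0.05, limma). Tested as an interaction, the difference from untreated seedlings was lower in replicate 2 than in replicate 1 for 16 members under nicotinamide (12.3% of all tested probe sets in either direction, 8.6% lower) and for 0 in toc1-1 (0.0879%; 3 at an unadjusted p under 0.05). For rpl16, a large-subunit protein, the nicotinamide median was 789 (137 to 2016) in replicate 1 and 76.8 (26.4 to 372.5) in replicate 2, beside untreated medians of 691 and 652. Replicate 1 thus spanned the untreated range and replicate 2 lay mostly below it. For rpoB the nicotinamide medians were 258 and 18.3, beside 149 and 98.5 in untreated seedlings, so the replicates lay on opposite sides. The nicotinamide means lay on both sides of the untreated means for 4 members, rpoB, cemA, rpl20 and rpl16 (background 8.91%).

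The median signal of the arrays moved with this difference, being 28.4 in replicate 1 and 24.7 in replicate 2 under nicotinamide, as did the labels for clump size and day length. Both labels also differ between the untreated replicates, along with the stage, and 2 members were called there (background 5.88%). The actin 3' to 5' log2 ratio was -0.46 and -1.01 in the nicotinamide courses, beside -1.07 and -1.03 in the untreated ones. That of GAPDH was -0.30 in both nicotinamide courses, and that of ubiquitin -0.17 and -0.23. The part of these measures and labels in the members' differences was not tested. Members with close values in both replicates were rps4, with mean log2 differences from untreated of -0.66 and -0.76, rpl32, with -0.73 and -0.56, and matK, with -0.26 and -0.33. Leaving out the array of lowest median signal in each nicotinamide course, 77 h of replicate 1 and 85 h of replicate 2, an alternative chosen after the data were seen, left 1 member higher and 19 lower. No share over all tested probe sets is given for that fit.

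**Figure D3:**
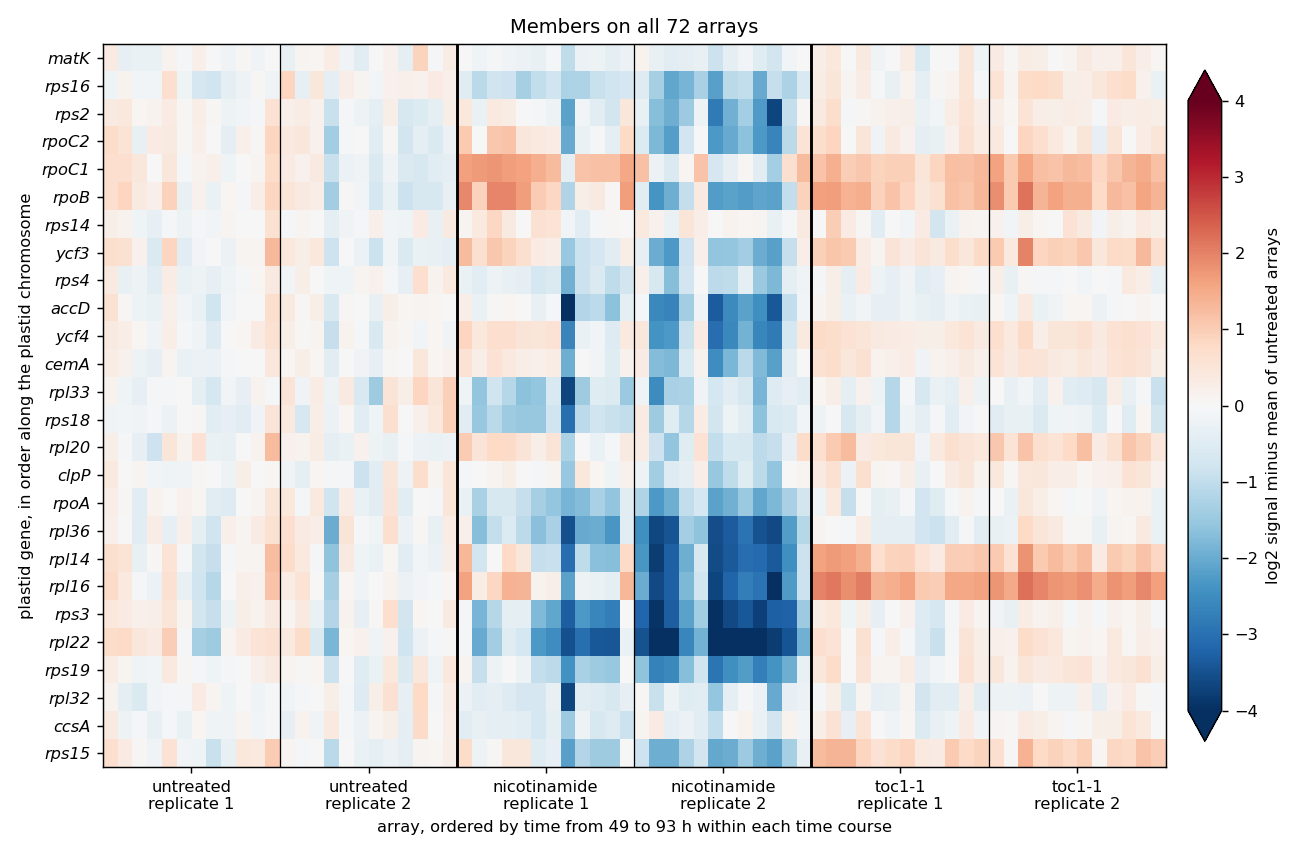
Log2 signal of each of the 26 members (rows, in chromosome order) on each of the 72 arrays (columns, by condition, replicate and time from 49 to 93 h), minus the mean of the 24 untreated arrays, with colours that saturate at 4 in either direction. The stretch from rpl36 to rps19 is blue on most arrays of nicotinamide replicate 2, and rpoC1, rpoB, rpl14 and rpl16 are red across both toc1-1 courses.

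In toc1-1 fewer members were called against untreated wild type. Of 25 members 7 (28%) were called higher and 0 lower, where 22.1% of all tested probe sets were higher and 19.6% lower (41.7% in either direction). The share of members called higher was thus near that of all tested probe sets. At an unadjusted p under 0.05 there were 10 (limma). The median log2 difference was 0.25, beside 0.02 over all tested probe sets. A log2 difference of 1 or higher was reached by 4 members, against 0.161% of all tested probe sets. Both toc1-1 time-course means lay above both untreated ones for 14 of 25 members (background 35.6%). With the time-course means as units 0 members were called, where 0.755% of all tested probe sets were higher. The shared spread of the fit over all arrays includes the variable nicotinamide arrays. With replicate 1 or replicate 2 of nicotinamide left out 14 members were called higher, and rps18 was called lower. The percentages called higher or lower above belong to the fit over all arrays. With the replicate number as a block 8 were called higher, rps16 being added, and rps18 was called lower (limma).

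The largest rise was in rpl16 (244983_at), whose bacterial homologue lies near the site where aminoacyl-tRNA enters. Untreated medians were 691 (289 to 1453) and 652 (253 to 955), and toc1-1 medians were 1979 (1305 to 2876) and 2259 (1848 to 3046). Of 24 toc1-1 arrays 22 lay above every untreated array, and the log2 difference was 1.68 ± 0.35 (SE; adjusted p = 0.0001425). It was higher at all 12 times in both replicates.

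The beta subunit gene of the polymerase, rpoB (244999_at), had toc1-1 medians of 296 (174 to 428) and 349 (228 to 607), against 149 (96.5 to 249) and 98.5 (37.4 to 180) in untreated seedlings. In all, 19 of 24 toc1-1 arrays lay above the untreated range, and the log2 difference was 1.28 ± 0.29 (SE; adjusted p = 0.000432). The gene after it, rpoC1, had toc1-1 medians of 1278 (866 to 1676) and 1454 (1103 to 1899), and 23 of 24 arrays lay above every untreated one. Its log2 difference was 1.14 ± 0.18 (SE; adjusted p = 3.58e-06). The third gene of the operon, rpoC2, was at 0.28 ± 0.23 without a call (adjusted p = 0.338), and rpoA was at -0.09 ± 0.11.

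For rpl14 the toc1-1 medians were 569 (354 to 940) and 593 (352 to 1014). These courses overlapped the untreated range, with 6 of 24 arrays above it, and the log2 difference was 1.04 ± 0.27 (SE; adjusted p = 0.00188). For rps15 (244938_at) they were 382 (256 to 547) and 367 (209 to 549), against 232 (102 to 426) and 196 (86.6 to 238) in untreated seedlings. Likewise 6 of 24 arrays lay above the untreated range, with a log2 difference of 0.83 ± 0.16 (SE; adjusted p = 7.82e-05). The other called members were ycf3 (0.76 ± 0.21) and rpl20 (0.66 ± 0.14; SE). Of 18 alternatives, 5 lost the toc1-1 call of ycf3 and 3 that of rpl14. The calls of rpoB and rpl20 were lost in 2 each. Those of rpoC1, rpl16 and rps15 were lost in 1, with time-course means as units.

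Other genes of the same stretch were not called in toc1-1. The log2 differences were 0.02 ± 0.21 for rps3, next to rpl16, and 0.19 ± 0.24 for rpl22, 0.30 ± 0.17 for rps19 and -0.09 ± 0.21 for rpl36 (SE). Whether rpl16 differed from these genes was not tested. The genes rps18 (-0.31 ± 0.14) and rpl33 (-0.24 ± 0.15) had the lowest values (adjusted p = 0.0659 and 0.2). Set directly against nicotinamide, toc1-1 was higher in 25 of 25 members (50.1% of all tested probe sets higher, 80.3% in either direction), from 0.44 in matK to 2.92 in rpl22. That contrast shares its arrays with the 2 above. In replicate 1 alone the call held for 16 of the members, and the percentages above belong to the fit over all arrays.

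**Figure D4:**
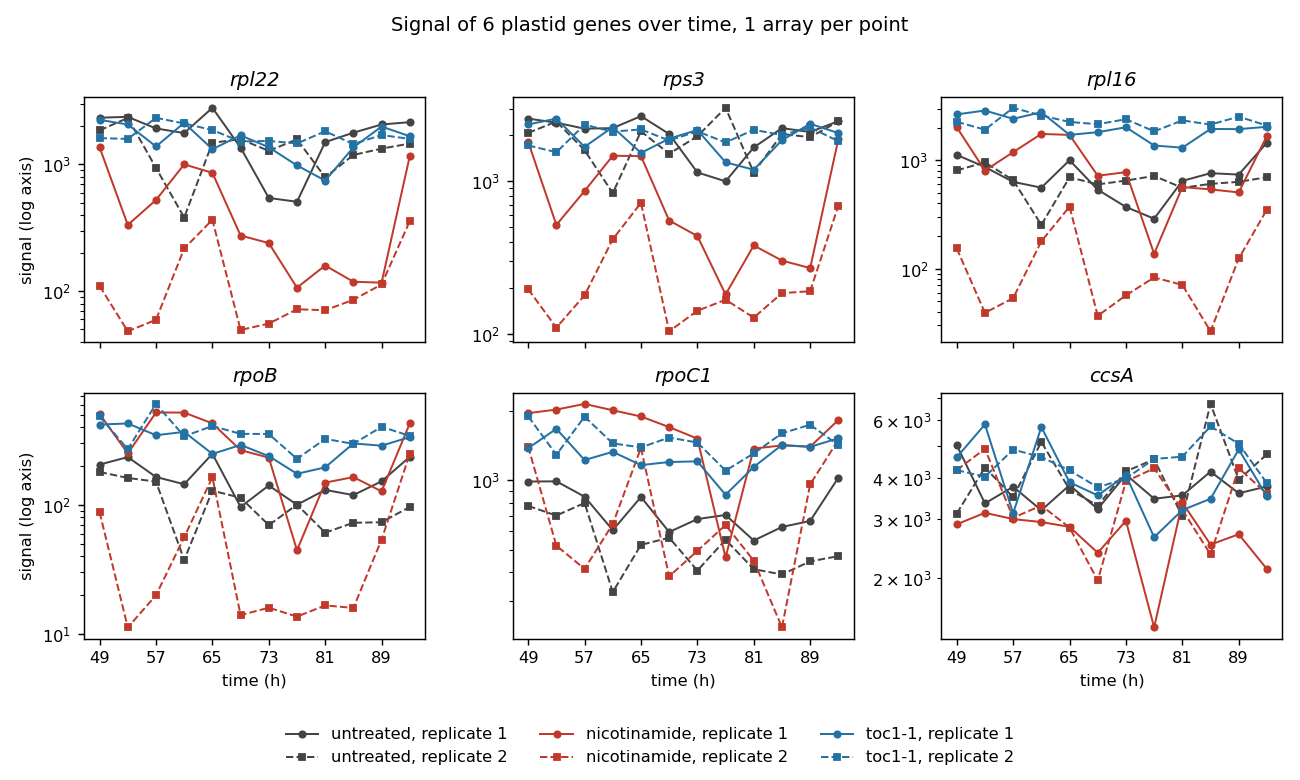
Signal (log axis) of rpl22, rps3, rpl16, rpoB, rpoC1 and ccsA against time in h, 1 array per point, for untreated (grey), nicotinamide (red) and toc1-1 seedlings (blue), with replicate 1 as solid and replicate 2 as dashed lines. The lowest rpl22 signal under nicotinamide was 48.3 in replicate 2, at 53 h, and toc1-1 signals of rpl16 stayed between 1305 and 3046.

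A 24 h rhythm was called in 0 of 25 members in untreated seedlings, where 22.9% of all tested probe sets were rhythmic, and 0 members passed an unadjusted p of 0.05 (limma). Their amplitudes, as the distance from mean to peak on the log2 scale, ran from 0.03 to 0.32 with a median of 0.16. That median was 0.12 over all tested probe sets. The members' SEs ran from 0.08 in matK to 0.35 in rpl16, in a fit whose shared spread includes the variable nicotinamide arrays. The count of 0 thus does not show that the members were less rhythmic than other probe sets. In toc1-1 0 members were called as well, against a background of 8.54%, with amplitudes of 0.01 to 0.19 and 0 members at an unadjusted p under 0.05. Under nicotinamide the amplitudes ran from 0.07 to 0.67 with a median of 0.42, and 1 member was called, rpl33 (0.50 ± 0.15, SE; adjusted p = 0.0299), against a background of 32%. At an unadjusted p under 0.05 there were 11. This count was not stable: with each array left out in turn it ran from 0 to 19, it was 5 with the replicate number as a block, 21 without replicate 1 and 6 without replicate 2 of nicotinamide, and 0 without the 77 h and 85 h arrays. The rhythm did not pass the test of a difference from untreated seedlings in any member, under nicotinamide (0 of 25; background 25.9%) or in toc1-1 (0 of 25; 7.2%), and at an unadjusted p under 0.05 there were 0 in either. Without replicate 1 of nicotinamide 16 members passed this test under nicotinamide, and without replicate 2 of it 2 did. The backgrounds of this paragraph belong to the fit over all arrays.

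Levels in the second cycle (73 to 93 h) were compared with those in the first (49 to 69 h). In limma 0 of 25 members were called in untreated seedlings (background 0.0366%; 0 at an unadjusted p under 0.05), 0 in toc1-1 (5.7%; 0) and 0 under nicotinamide (7.55%; 7). The nicotinamide differences had a median of -0.45 and ran from -0.81 in accD to 0.18 in rps16, with 23 of 25 below 0. The change between cycles differed from that of untreated seedlings in 0 members under nicotinamide (1.03%; 1 at an unadjusted p under 0.05) and in 0 in toc1-1 (0% of all tested probe sets; 0). Without replicate 2 of nicotinamide 19 members were called for the change itself and 17 for its difference from untreated seedlings. With the replicate block 1 member was called for the change itself. The percentages above belong to the fit over all arrays. In replicate 2 of nicotinamide the levels were already low at 53 and 57 h, and in replicate 1 the arrays from 77 to 89 h were the lowest.

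Most pairs of members were positively correlated within a time course. Over the 12 arrays of a course the 300 pairs of members had a median Pearson correlation of 0.516 and 0.507 in the untreated courses, 0.83 and 0.803 under nicotinamide, and 0.683 and 0.471 in toc1-1. The share of positive pairs was 92.3% and 81.7% in the untreated courses and 97% to 100% in the other 4. The lowest values were -0.549 for rpl22 and rpl32 in untreated replicate 1 and -0.609 for rpl20 and ccsA in untreated replicate 2. These correlations share the arrays and their scaling and are given as a description. Over all 72 arrays, as deviations from the mean of each course, pairs of genes next to each other on the chromosome had a median correlation of 0.874 (13 pairs) and the other pairs one of 0.659 (287 pairs). Neighbours were taken by position without regard to strand. The highest correlation of any pair, 0.971 for accD and ycf4, was among the other pairs. These genes follow each other among the members, but not when all plastid protein-coding genes are counted, as was done here. Among neighbours ycf4 and cemA (0.962), rpl14 and rpl16 (0.96), rps3 and rpl22 (0.952) and rps2 and rpoC2 (0.901) were highest, and matK and rps16 (0.326) and rps18 and rpl20 (0.452) lowest. For rpl16 and rps3 the correlation was 0.892, and their log2 differences in toc1-1, not tested against each other, were 1.68 ± 0.35 and 0.02 ± 0.21 (SE). The member least like the rest was ccsA, with a median correlation of 0.316 with the other members, and its closest partner was matK (0.842).

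The other plastid genes are given as counts, and no difference between these groups and the members was tested. Under nicotinamide 48.4% of all tested probe sets were lower and 30.9% higher (79.3% in either direction). Of 9 tested NDH genes, whose products form a complex for electron flow around photosystem I, 7 were lower and 0 higher, with a median of -0.62. Of 33 genes for the photosystems, the cytochrome complex, ATP synthase and Rubisco, 17 were higher and 8 lower, with a median of 0.28. The nicotinamide replicates differed from each other in 3 of the 9 and 17 of the 33 (background 45.3%). In toc1-1 the counts were 5 higher and 0 lower of 9 NDH genes, and 15 higher and 5 lower of the 33. Its backgrounds were 22.1% higher and 19.6% lower.

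Lists of nuclear loci, drawn up from general knowledge for products that work with the members, could be followed in part, since few of the loci had a named probe set. The backgrounds given for the other plastid genes apply to these lists as well. Of 38 loci listed for plastid ribosomal proteins 9 were tested, and under nicotinamide 7 were lower and 1 higher, with a median of -0.61. The smallest adjusted p values belonged to AT3G13120 (-0.87 ± 0.05), AT5G47190 (-0.88 ± 0.05) and AT4G01310 (-0.87 ± 0.05), and AT5G24490 was higher (0.29 ± 0.09; SE). In toc1-1 2 of the 9 were lower, AT4G17560 (-0.49 ± 0.06) and AT1G64510 (-0.33 ± 0.06; SE), and 0 higher.

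Of 14 loci listed for the Clp protease 5 were tested, with the same backgrounds. Under nicotinamide AT1G09130 (0.55 ± 0.04), CLPP4 (0.41 ± 0.05) and AT1G68660 (0.42 ± 0.06) were higher and AT4G25370 (-0.22 ± 0.07) lower, while clpP itself was at -0.35. In toc1-1 AT4G12060 was higher (0.28 ± 0.06; SE). Of 3 loci listed for cytochrome c assembly, the pathway of ccsA, 2 were tested: CcdA was higher (1.23 ± 0.05) and AT1G49380 lower (-1.17 ± 0.09; SE) under nicotinamide, and 0 were called in toc1-1. The lists for nuclear-encoded plastid transcription (23 loci) and RNA processing (12 loci) had 1 named probe set each and 0 tested, and those for the acetyl-CoA carboxylase partners (4 loci) and the TIC and YCF2 complexes (8 loci) had 0 named probe sets.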

How the data were processed

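The data are 72 ATH1 arrays. Signal intensities were deposited by the authors in 1 table. MAS5 and GCOS are named in the submitters' processing notes, with no versions stated, and on each array the mean after trimming 2% at each end was 100.01 to 100.02. No normalization was added. Of 22810 probe sets, 13513 had 1 annotated gene, 503 several and 8794 none listed, and 13436 of the first matched RefSeq, which gave the chromosome. Plastid probe sets with several genes, 7 in number, were set aside. The members and gene lists were chosen with earlier results of these data known.

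Values were taken as log2(signal + 16), the 64 control probe sets and the lower 40% by mean signal were left out, and limma 3.58.1 in R 4.3.3 fitted 36 means, 1 per condition and time (36 residual degrees of freedom; empirical Bayes with trend). Means were contrasted between conditions, between cycles and for 24 h cosine and sine terms, with Benjamini-Hochberg adjustment over 13647 probe sets. Time courses were compared by adding a replicate term per condition, and its interaction with condition was chosen after the data were seen. Simulated data had independent noise on each array and no difference between time courses. In nicotinamide against untreated, 98% of 50 probe sets changed by 0.5 were recovered there. For a rhythm of amplitude 0.5 in untreated seedlings it was 86%, and for a cycle change of 0.5 under nicotinamide 68%. The real nicotinamide time courses differed in most members, so these shares do not carry over to them. The changed probe sets were drawn at random from all 13647, each with its own spread. SEs of the members' untreated amplitudes ran from 0.08 in matK to 0.35 in rpl16. The 86% is therefore not a share for the members either. All members are named. Values are written out by time course for the 5 called members of largest size in each direction of a comparison that moved the same way in both time courses. Listed nuclear loci are named up to 3 per direction by adjusted p. Results were recomputed under 19 other settings: scaling, pseudocount, filter, blocks, left-out time courses and arrays, a linear trend and another spread. The number of time courses, 2 per condition, limits the precision, as does the number of arrays.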

Additional observations from a re-analysis of the deposited data

Results flagged for a closer look

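The difference between nicotinamide and untreated seedlings was not the same in both replicates. By limma's test of that interaction, chosen after the data were seen, it was lower in replicate 2 than in replicate 1 for 16 of 25 members, against 12.3% of all tested probe sets in either direction and 8.6% lower. The gap on the log2 scale was -2.83 for rpl16, -1.91 for rpl14 and -1.67 for rpoB. It was -1.41 for ycf4, -1.39 for rps3, and -1.30 for both rpl36 and rpl22. For cemA it was -1.17, for rpoC2 -1.16 and for accD -1.15. For rps19 it was -1.07, for rps2 -1.03 and for ycf3 -0.96. The smallest called gaps were -0.74 in rps16, -0.72 in rpoC1 and -0.72 in rps15. In toc1-1 the same test called 0 members (0.0879% of all tested probe sets), with 3 at an unadjusted p under 0.05. Without the nicotinamide arrays of 77 h in replicate 1 and 85 h in replicate 2 the count was 18. The percentages above belong to the fit over all arrays, and none is given for that alternative.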

How the results depend on the processing

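Of 285 counts of members under the alternatives, 249 stayed within 1.5 times the reported count and 36 moved. For the nicotinamide difference, rps16, rps4, accD, rpl33, rps18, rpoA, rpl36, rps3, rpl22, rps19, rpl32 and rps15 kept direction and call in all 18 alternatives that apply. With the means of the 6 time courses, the members higher under nicotinamide went from 1 to 0, those lower from 22 to 13, and those higher in toc1-1 from 7 to 0. With replicate 1 alone 2 members were higher under nicotinamide and with replicate 2 alone 0, and toc1-1 differed from nicotinamide in 16 with replicate 1 alone. One member, against 0, was lower in toc1-1 with a pseudocount of 64, with the replicate block, without the 3 arrays whose titles end in _2 and without the nicotinamide arrays of 77 h and 85 h. Leaving out 1 time course at a time gave 0 to 4 members higher and 16 to 24 lower under nicotinamide, and 5 to 14 higher and 0 to 1 lower in toc1-1. It gave 0 to 2 rhythmic in untreated seedlings, 0 to 21 rhythmic under nicotinamide and 0 to 16 with a different rhythm. Between cycles it gave 0 to 19 changed under nicotinamide and 0 to 17 whose change differed from untreated. Backgrounds are given only for the fit over all arrays and for the time-course means. Rhythmic members under nicotinamide numbered 2 with quantile normalization, 5 with the replicate block, 15 with time courses as a random block, 14 with a linear trend and 0 without the arrays of 77 h and 85 h. Cycle changes under nicotinamide numbered 1 with the replicate block and 6 with the random block. The untreated time courses differed in 0 members, against 2, with a pseudocount of 1 and without the filter. Without replicate 2 of nicotinamide the log2 difference turned to 0.21 in rpoC2, 0.95 in rpoB, 0.16 in ycf3, 0.091 in ycf4, 0.02 in cemA, 0.26 in rpl20 and 0.35 in rpl16, and with replicate 1 arrays alone to 0.63 in rpoB, 0.038 in cemA and 0.29 in rpl16. Without replicate 1 of nicotinamide they were -1.40 in rpoC2, -1.35 in rpoB, -1.21 in ycf3, -1.50 in ycf4, -1.11 in cemA, -0.49 in rpl20 and -2.60 in rpl16. These alternatives hold fewer samples, and otherwise the cause was not tested. Same-numbered time courses had correlations of 0.522, 0.225 and 0.183 between their replicate differences. The labels do not say that a number marks a shared batch, and there are only 2 numbers. The replicate block moved the counts of members given above for it, and left the nicotinamide difference at 1 higher and 22 lower.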

Other observations

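Of the 7 plastid probe sets with several annotated genes 6 were tested. Under nicotinamide 3 were higher and 3 lower, where 30.9% of all tested probe sets were higher and 48.4% lower. Their log2 differences ran from -1.16 to 0.91 with a median of 0.11. In toc1-1 3 were higher and 0 lower (backgrounds 22.1% and 19.6%), with differences from 0.11 to 1.51 and a median of 0.68.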
